A study of Solanum lycopersicum with 18 samples.

Results

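The early flavonoid genes of tomato (Solanum lycopersicum) were followed after induction of Rosea1 and Delila, snapdragon transcription factors of the MYB and bHLH classes that together switch on anthocyanin genes. They are the chalcone synthases CHS1 (Solyc09g091510) and CHS2 (Solyc05g053550), the chalcone isomerase CHI1 (Solyc05g010320), the chalcone isomerase-like gene CHIL (Solyc05g052240) and the flavanone 3-hydroxylase F3H (Solyc02g083860). They were chosen by identifier, with earlier results of these data known, and all 5 were found among the 5295 features of the authors' deposited table. The transgenes stood under a system switched on by dexamethasone (DEX), a synthetic glucocorticoid, in roots of seedlings and in callus, a mass of unorganised cells kept in culture. Messenger RNA was sequenced from 6 groups of 3 libraries, namely roots 3 h and 24 h after 10 mg/L DEX and uninduced roots, and callus 3 h and 24 h after 10 mg/L DEX and uninduced callus. By the design text all 6 groups carry the inducible system, and no group is labelled as given DEX without it, so effects of DEX itself and of Rosea1 and Delila cannot be told apart. The labels do not name the promoter, the line or the number of plants behind a library, nor the time at which the uninduced samples were taken.

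The values are 1 fold change for each gene in each of 4 comparisons, read as induced over uninduced samples within a tissue. That reading rests on the transgenes, which stood far above 1 in every column, since the headers do not name the reference. Values per library were not analysed here. The spread between replicates is therefore unknown, no fold carries an error or a test, and neither the depth nor the tissue markers of a library could be checked. Higher and lower mean a fold of at least 2, and an order of folds is a description only. A fold depends on the uninduced level, which the table does not give, so that a large fold is not a high transcript level. In these bulk samples more expressing cells and more RNA per cell cannot be told apart. By its name, the table is limited to features past an FDR of 0.05 and a fold of 2 in some comparison, and it does not say in which.

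Flavonoid synthesis starts when chalcone synthase joins coumaroyl-CoA, a product of phenylalanine, with malonyl-CoA to make naringenin chalcone. Chalcone isomerase closes this chalcone to naringenin, and flavanone 3-hydroxylase turns naringenin into a dihydroflavonol, from which both flavonols and anthocyanins are made. CHIL proteins are relatives of the isomerase that lack its activity and, in Arabidopsis and other plants, raise the flow through chalcone synthase. In tomato these steps are best known from the fruit peel, where naringenin chalcone accumulates and the isomerase transcript is scarce. The table describes CHS1 and CHS2 alike as chalcone synthases, and CHI1 and CHIL alike as chalcone-flavonone isomerases. The short names come from the choice of genes. By their identifiers CHS1 lies on chromosome 9, F3H on chromosome 2 and the other 3 genes on chromosome 5.

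The chalcone synthases had the largest folds of the early genes in roots at both times. In callus CHS2 had the smallest fold at 3 h and CHS1 the largest at 24 h. The folds of CHS1 in the authors' deposited table were 443 and 5701 in roots at 3 h and 24 h, against 4.67 and 142 in callus. CHS2 had values of 2661-fold and 7271-fold in roots at 3 h and 24 h in the authors' deposited table, against 1.67-fold and 89.7-fold in callus. CHS2 at callus 3 h was thus the lowest of the 20 values of the early genes and the only one of them under 2-fold. In roots at 3 h CHS2 ranked 5 and CHS1 ranked 11 from the top of all 5295 features of the authors' deposited table, and at 24 h they ranked 5 and 6. In callus at 3 h CHS1 ranked 459 and CHS2 1688, and at 24 h they ranked 17 and 21.

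The paralogues changed places between the tissues. From the authors' deposited table, the CHS2 fold was 6.01 times that of CHS1 in roots at 3 h and 1.28 times at 24 h. In callus the CHS1 fold was 2.79 times that of CHS2 at 3 h and 1.58 times at 24 h. At 24 h they lay within 1.6 times of each other in both tissues, after larger gaps of opposite direction at 3 h. Chalcone synthases are close relatives in sequence, and how reads that match both genes were counted is not stated, so the split between CHS1 and CHS2 is uncertain.

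The isomerase and its non-catalytic relative stood far apart, with CHI1 the least changed early gene in roots and CHIL among the more strongly changed ones in both tissues. For CHI1, which makes naringenin, the authors' deposited table lists folds of 3.31 and 8.93 in roots at 3 h and 24 h, with 2.82 and 8.61 in callus. For CHIL the authors' deposited table lists folds of 308 and 636 in roots at 3 h and 24 h, with 22.8 and 94.0 in callus. In callus at 3 h CHIL was the highest of the early genes, where CHS1 and CHS2 stood under 5-fold. The CHIL fold was 93.0 times and 71.1 times that of CHI1 in roots at 3 h and 24 h, and 8.10 times and 10.9 times in callus, from the authors' deposited table. CHI1 ranked 780 and 121 of 5295 in roots at 3 h and 24 h, and 882 and 109 in callus, against 13 and 12 in roots and 51 and 19 in callus for CHIL.

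F3H, which makes the dihydroflavonol shared by flavonols and anthocyanins, was the early gene whose fold differed least between the times. Its folds in the authors' deposited table were 179 and 246 in roots at 3 h and 24 h, with 13.3 and 17.8 in callus. In all 4 comparisons it lay below CHIL, whose fold was between 1.71 and 5.28 times that of F3H in the authors' deposited table. In callus at 3 h the F3H fold was 2.85 times that of CHS1, whereas the CHS1 fold was 7.98 times that of F3H there at 24 h, from the authors' deposited table. In roots the order was the same at both times, from CHS2 through CHS1, CHIL and F3H down to CHI1. In callus it was CHIL, F3H, CHS1, CHI1 and CHS2 at 3 h and CHS1, CHIL, CHS2, F3H and CHI1 at 24 h. Without replicate values no pair of neighbours in these orders could be tested.

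**Figure D1:**
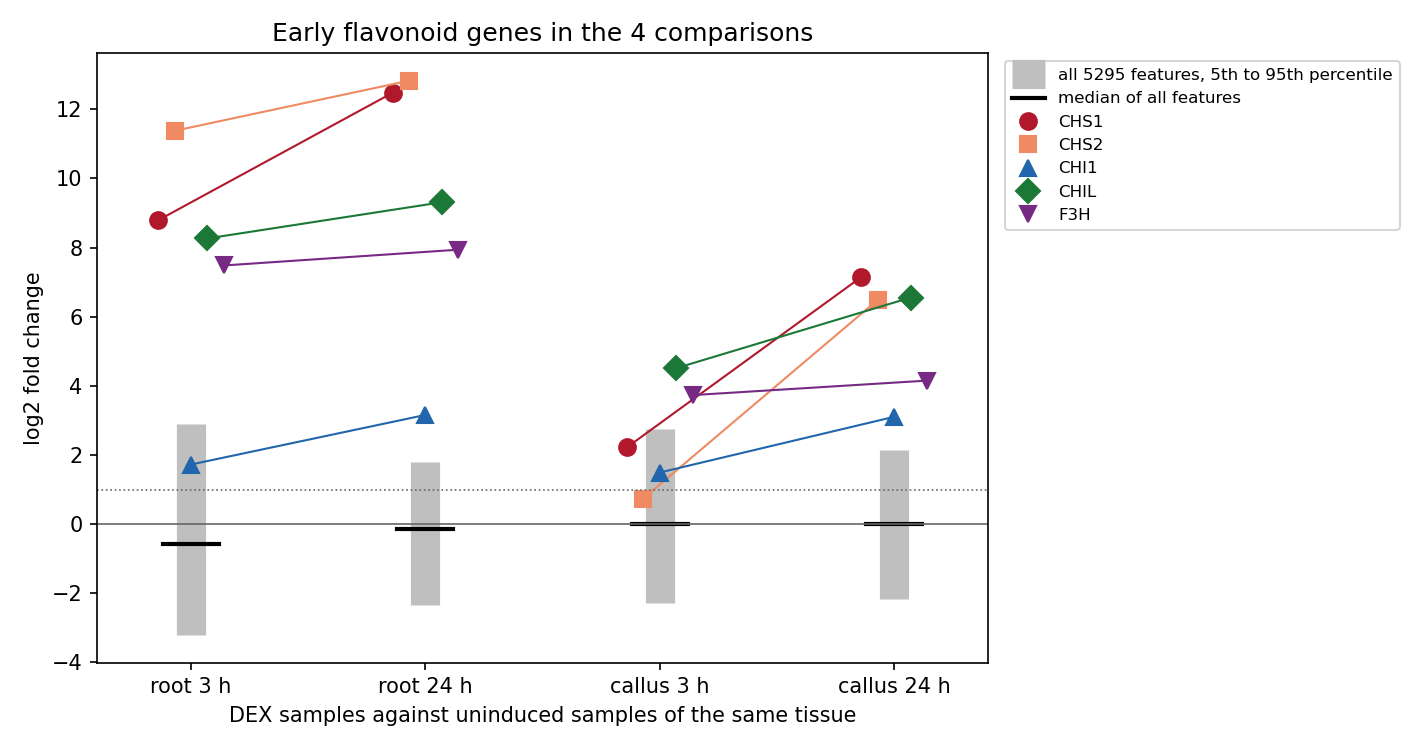
The log2 fold change of each early flavonoid gene (coloured points, joined within a tissue) in the 4 comparisons, with the 5th to 95th percentile of all 5295 features (grey bars), their median (black lines) and a 2-fold change (dotted line). In roots 4 genes lie between 7.48 and 12.8 with CHI1 at 1.73 and 3.16, and in callus the spread at 3 h runs from 0.74 for CHS2 to 4.51 for CHIL. Points are shifted sideways for legibility.

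All 5 early genes were at least 2-fold higher in roots at 3 h, where 31.3% of all features were, and in roots at 24 h, where 11.7% were. In callus 4 of the 5 were higher at 3 h, with 27.8% of all features, and all 5 at 24 h, with 18.0%. None of the 5 was lower in any comparison, whereas 44.6% of all features were in roots at 3 h, 21.9% in roots at 24 h, 23.4% in callus at 3 h and 21.5% in callus at 24 h. At least 10-fold higher were 4 of the 5 in roots at 3 h (3.36% of all features), 4 at 24 h (2.04%), 2 in callus at 3 h (2.81%) and 4 at 24 h (1.81%). CHI1 was under 10-fold in every comparison, and CHS1 and CHS2 were in callus at 3 h. The median log2 fold of the 5 genes was 8.26 and 9.31 in roots at 3 h and 24 h, and 2.22 and 6.49 in callus, computed from the authors' deposited table. The median of all features was -0.58 and -0.13 in roots and 0 in callus at both times. The 5 genes were also spread more widely in roots, over 9.65 and 9.67 log2 units at 3 h and 24 h, than in callus, over 3.77 and 4.04. The low end was CHI1 in 3 of the 4 comparisons and CHS2 in callus at 3 h.

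Folds of the early genes were larger in roots than in callus at both times, except for CHI1. From the authors' deposited table, the root fold of CHS2 was 1590.5 times its callus fold at 3 h and 81.0 times at 24 h. The value at 3 h was the largest ratio of a root to a callus fold of all 5295 features at that time. For CHS1 the root fold was 94.9 times and 40.1 times the callus fold at 3 h and 24 h, ranks 10 and 27, from the authors' deposited table. CHS2 was the only feature whose ratio reached that of CHS1 at both times, and none reached that of CHS2 at both. CHIL had ratios of 13.5 and 6.76 at 3 h and 24 h, and F3H 13.5 and 13.8, from the authors' deposited table. CHI1 was close to equal in the tissues, with 1.17 and 1.04. A root fold at least 10 times the callus fold was thus found for 4 of the 5 genes at 3 h, against 2.74% of all features, and for 3 of the 5 at 24 h, against 1.95%.

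Among the late anthocyanin genes, which act after the dihydroflavonol, some had larger folds in roots and some in callus. Their list holds 9 genes for hydroxylation, reduction, oxidation, decoration and vacuolar transport. At 3 h 4 of the 9 had a root fold at least 2 times the callus fold, against 19.1% of all features. A callus fold at least 2 times the root fold was found for 3, against 33.8%, so this number is near the share of all features. At 24 h 3 of the 9 lay each way, against 12.5% and 18.2% of all features. The median log2 ratio of root to callus folds was 3.75 and 3.79 for the 5 early genes at 3 h and 24 h, and 0.80 and 0.29 for the 9 late genes, computed from the authors' deposited table. The median of all features was -0.42 and -0.12. Of the 9 late genes only the transporter MATE (Solyc03g025190) reached a ratio of 10, with 29.5 and 22.4 from the authors' deposited table. Some members of its family carry flavonoids across the vacuole membrane. A glutathione S-transferase (GST, Solyc02g081340) had ratios of 4.29 and 3.52 at 3 h and 24 h, and F3'5'H (Solyc11g066580), which adds hydroxyl groups to the B ring, had 3.15 and 1.30, from the authors' deposited table. Dihydroflavonol 4-reductase (DFR, Solyc02g085020) went the other way, with root-to-callus ratios of 0.328 and 0.279 from the authors' deposited table. So did an O-methyltransferase (AOMT, Solyc09g082660) with 0.165 and 0.346, and a 5-glucosyltransferase (5GT, Solyc12g098590) with 0.350 and 0.492. Anthocyanidin synthase (ANS, Solyc08g080040) had 1.74 and 0.946. Whether these ratios come from different induced or different uninduced levels of the tissues cannot be read from folds, and the difference between early and late genes carries no test over samples. The transgenes themselves had larger folds in roots, with ratios of 6.50 and 5.72 at 3 h and 24 h for Delila and 1.25 and 1.59 for Rosea, from the authors' deposited table, and their part in the result was not tested.

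**Figure D2:**
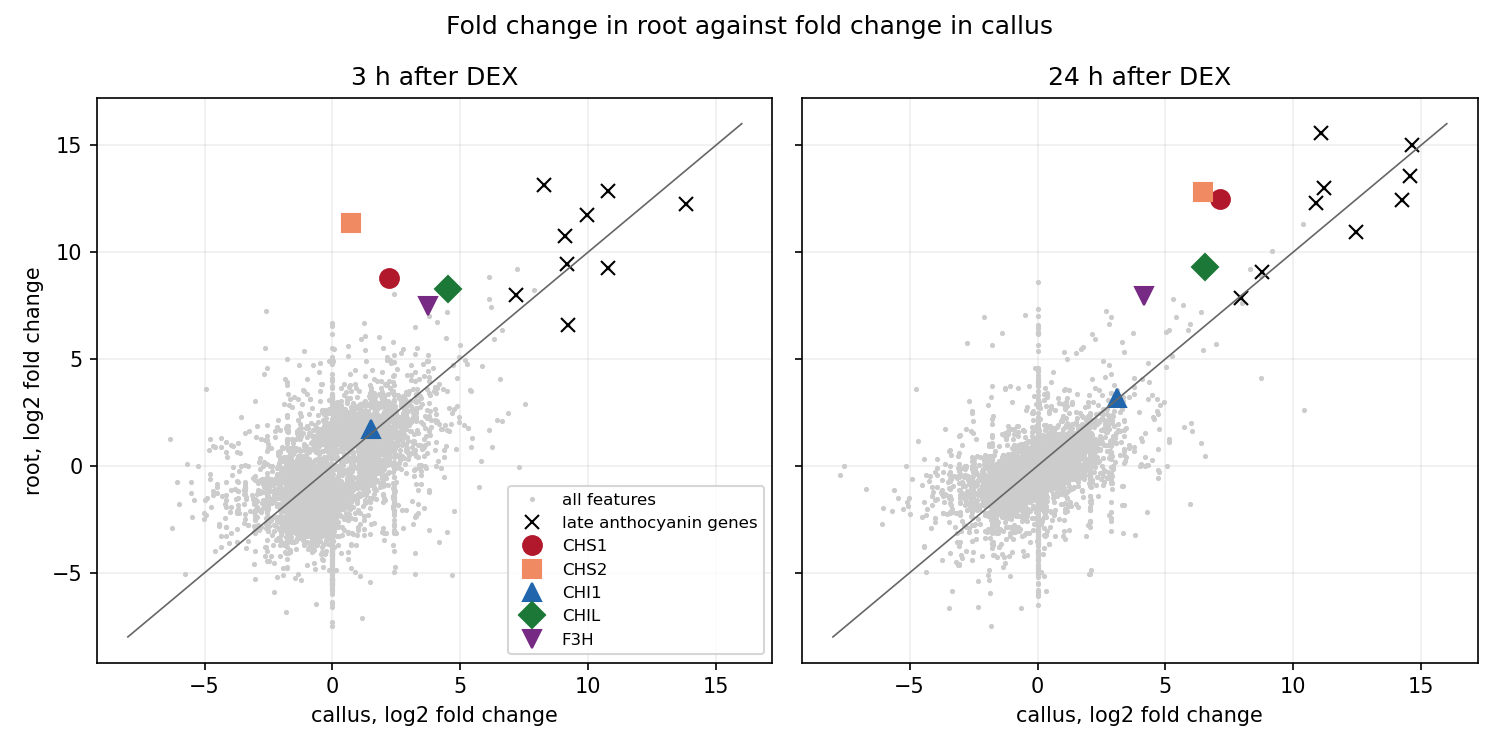
The log2 fold change in root (vertical axis) against that in callus (horizontal axis) at 3 h and 24 h after DEX, for all features (grey), the 9 late anthocyanin genes (crosses) and the 5 early flavonoid genes (coloured), with the line of equal folds. CHS1, CHS2, CHIL and F3H lie above the line at both times, CHS2 at 11.4 in root and 0.74 in callus at 3 h, and CHI1 lies close to the line.

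In the columns as deposited every early gene had a larger fold at 24 h than at 3 h in both tissues, by amounts that differed between genes. The fold was at least 2 times larger at 24 h for 4 of the 5 in each tissue. Of all 5295 features 1379 were so in roots and 794 in callus. CHIL at 24 h stood at 2.07 times its 3 h fold in roots and 4.12 times in callus, and CHI1 at 2.70 times and 3.06 times, from the authors' deposited table. The corresponding ratios from the authors' deposited table were 12.9 in roots and 30.4 in callus for CHS1, and 2.73 and 53.6 for CHS2. F3H had 1.37 and 1.34, under 2-fold in both tissues. With columns centred on the median of all features, its log2 fold in roots was 8.06 at 3 h and 8.07 at 24 h, so nearly equal. Centred values in roots at 3 h and 24 h were 8.85 and 9.45 for CHIL, and 2.31 and 3.29 for CHI1. The median log2 ratio of the 5 genes was 1.43 in roots and 2.04 in callus, against 0.06 and -0.09 over all features. As the folds are read here, both times of a tissue share their uninduced samples, so each of these ratios sets 24 h against 3 h. Any difference in scaling between the 2 columns stays in the ratio, and the root columns had medians of -0.58 and -0.13. CHS2 ranked 6 of all features by its callus ratio and 885 by its root ratio, where the authors' deposited table already had it at 2661-fold 3 h after DEX. CHS1 ranked 18 and 114, and the 5 features with ratios at least as large as its own in both tissues included the late gene F3'5'H. The others, named after their values were seen, were described as CER1 (Solyc01g088410), a GDSL esterase (Solyc02g071710), a cold induced protein-like feature (Solyc06g066420) and a sex-linked protein 9 fragment (Solyc06g074200).

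In callus CHS2 went from under 2-fold at 3 h, as 2582 of all 5295 features were, to far above it at 24 h. There were 2 others under 2-fold at callus 3 h and at least as high as CHS2 at callus 24 h. They were a defensin (Solyc07g007750) with a 24 h fold of 1362 and a cyclin (Solyc07g052610) with 126 in the authors' deposited table. The limit at 24 h was the fold of CHS2 itself, which ranked 21, so few features could meet it. Both are listed at exactly 1 at callus 3 h, a value that 367 features share in that column, whereas no other feature has the 1.67-fold of CHS2 to the deposited digits. These 2 features were also named after their values were seen.

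**Figure D3:**
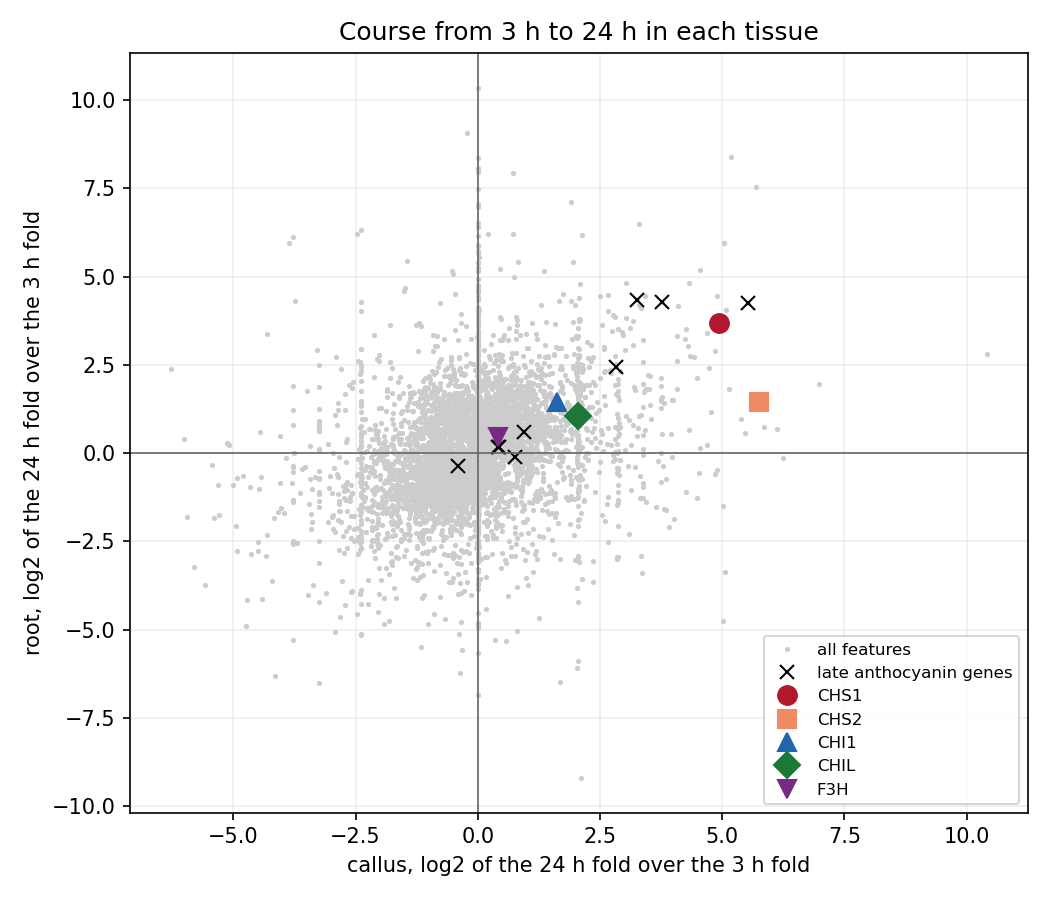
The log2 ratio of the 24 h fold to the 3 h fold in root (vertical axis) against that in callus (horizontal axis), for all features (grey), the 9 late anthocyanin genes (crosses) and the 5 early flavonoid genes (coloured). CHS1 lies far from 0 on both axes at 3.69 and 4.93, CHS2 at 1.45 and 5.75, and F3H lies near 0 at 0.46 and 0.42.

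Genes that supply the substrates of chalcone synthase had smaller folds than the synthases, with callus at 3 h as the exception. Of 20 phenylpropanoid entry genes, phenylalanine ammonia-lyases and 4-coumarate CoA ligases, 13 were higher and 1 lower in roots at 3 h, where 31.3% of all features were higher and 44.6% lower. In roots at 24 h 6 were higher and 0 lower, beside 11.7% and 21.9% of all features, and 10 were higher once columns were centred on the median of all features. The numbers higher in callus were 12 at 3 h and 14 at 24 h, beside 27.8% and 18.0% of all features, and 0 were lower at either time, beside 23.4% and 21.5%. Their median log2 fold of 1.72 in callus at 3 h lay between the 2.22 of CHS1 and the 0.74 of CHS2, whereas in roots at 3 h it was 1.32 against 8.79 and 11.4, computed from the authors' deposited table. The authors' deposited table lists the ammonia-lyase Solyc09g007890 with folds of 2.09 and 1.83 in roots at 3 h and 24 h, and of 13.3 and 4.87 in callus. In callus it was thus above both synthases at 3 h and below both at 24 h. Ammonia-lyase Solyc05g056170 is listed in the authors' deposited table with folds of 3.53 and 3.4 in roots, and of 5.09 and 10.9 in callus. There Solyc09g007910 had 2.11 and 2.1 in roots, and 9.07 and 5.65 in callus. For Solyc03g036480 the root folds were 8.8 and 5.3, and the callus folds 6.38 and 5.85. Of the 20 genes 3 had a root fold at least 2 times the callus fold at 3 h, against 19.1% of all features. The reverse held for 7, against 33.8%. At 24 h these numbers were 0 and 6, against 12.5% and 18.2%. Several ammonia-lyases have neighbouring identifiers and close sequences, so reads may have been split between them.

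An acetyl-CoA carboxylase (Solyc12g056940), the kind of enzyme that makes malonyl-CoA, was higher in every comparison. Its folds in the authors' deposited table were 12.4 and 9.38 in roots at 3 h and 24 h, with 17.1 and 12 in callus. Its highest fold was thus 1.82 times its lowest, against 3.17 times for CHI1, the early gene with the narrowest range over the 4 comparisons. In callus at 3 h it lay above CHS1, CHS2, CHI1 and F3H and below CHIL. The other feature of this list, an acetyl-CoA carboxylase-like protein (Solyc12g100120), was lower by 2.60-fold in roots at 3 h and under 2-fold in the other 3 comparisons of the authors' deposited table. With centred columns it was under 2-fold in roots at 3 h too, at a log2 value of -0.80.

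Downstream of F3H all 9 late genes were higher in every comparison, by at least 10-fold. Of all features 3.36% and 2.04% were so in roots at 3 h and 24 h, and 2.81% and 1.81% in callus. This list was fixed with earlier results of these data known. Their median log2 fold was 10.8 and 12.4 in roots at 3 h and 24 h, and 9.21 and 11.2 in callus, computed from the authors' deposited table. In callus at 3 h the lowest of them, ANS with a fold of 145, stood above the highest early gene, CHIL with 22.8, in the authors' deposited table. In roots the sets overlapped. There the authors' deposited table puts CHS2 with 2661 above F3'5'H with 1740.3 at 3 h, and CHS1 with 5701 above DFR with 5443 at 24 h, all as folds. Only 4 features other than the transgenes had folds at least as high as CHS1 in all 4 comparisons, and all 4 are late genes, the GST, the MATE transporter, F3'5'H and 5GT. CHS2 was matched in this way by the GST and the MATE transporter alone. For CHIL there were 7 such features, for F3H 10 and for CHI1 31.

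**Figure D4:**
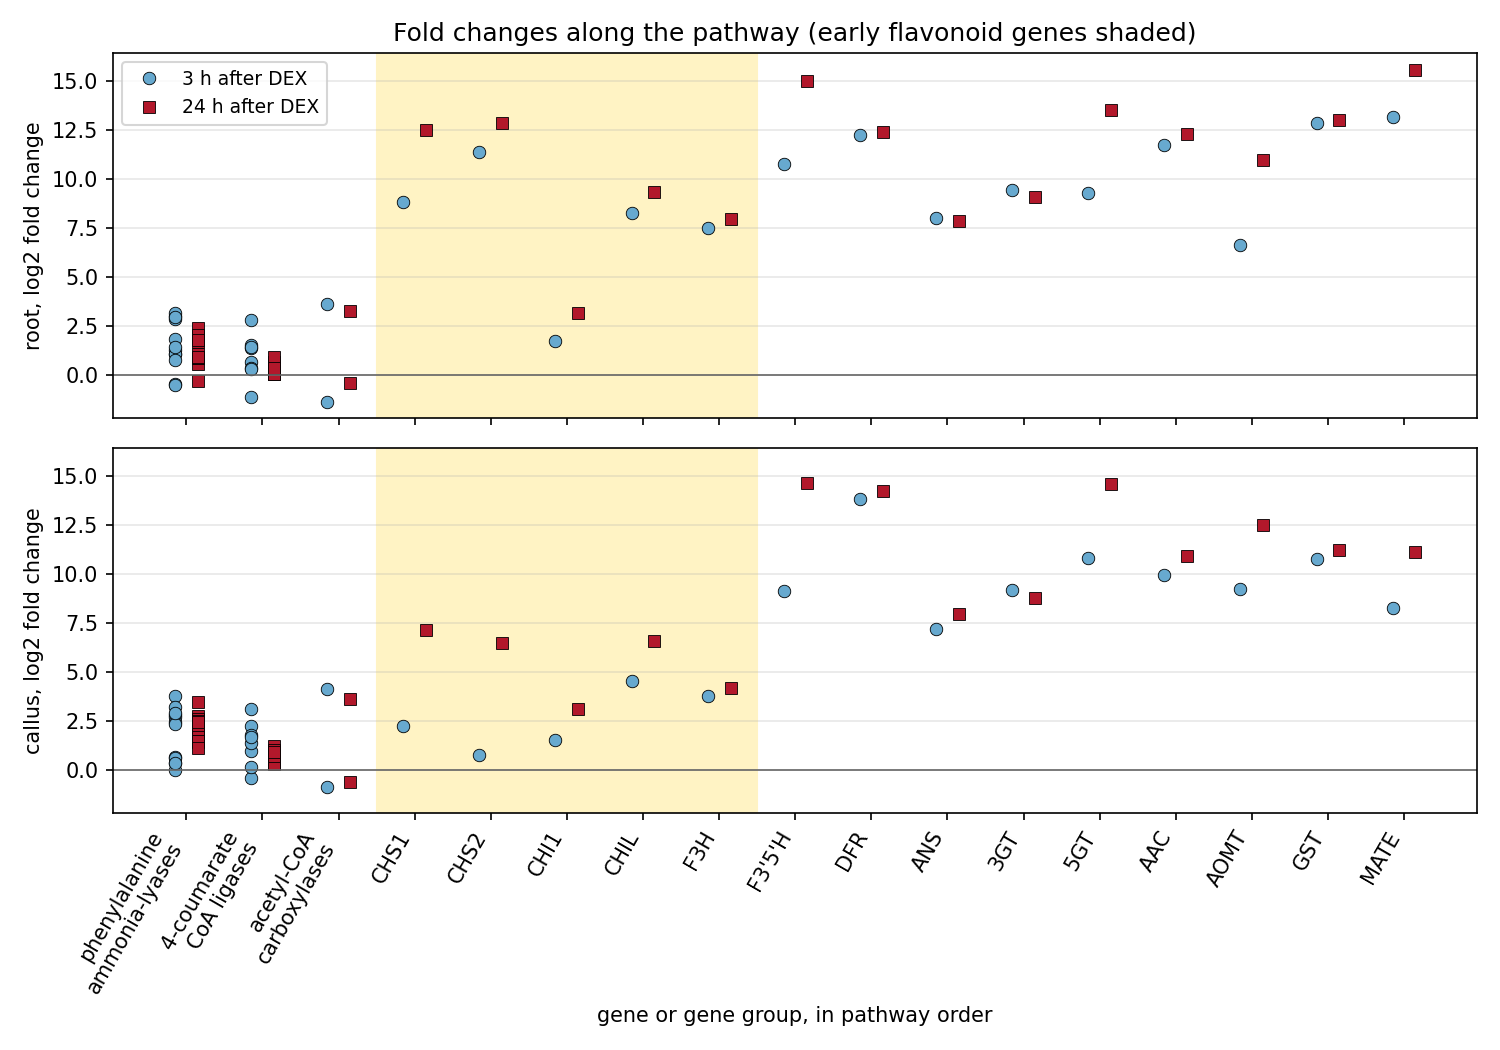
The log2 fold change in root (upper panel) and callus (lower panel) at 3 h (blue circles) and 24 h (red squares) after DEX, with genes or gene groups in pathway order and the early flavonoid genes shaded. In callus at 3 h the early genes reach at most 4.51 and the late genes start at 7.18, whereas in roots CHS1 and CHS2 reach 12.5 and 12.8 at 24 h among late genes between 7.86 and 15.6.

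Other features with the same enzyme names were mostly under 2-fold or lower. Of 5 such features 3 were higher in roots at 3 h and 0 at 24 h, where 31.3% and 11.7% of all features were, and 1 was higher at 24 h with centred columns. In callus 0 of the 5 were higher at 3 h or 24 h, where 27.8% and 18.0% of all features were. A chalcone synthase-A (Solyc05g053170) was lower in roots, by sizes of 39.9 and 7.06 at 3 h and 24 h of the authors' deposited table, where CHS1 and CHS2 were higher, and it is listed at exactly 1 in callus. The chalcone isomerase Solyc08g061480 was higher by 4.52-fold in roots at 3 h and under 2-fold elsewhere in the authors' deposited table. A flavanone 3-hydroxylase-like protein (Solyc03g080190) had folds of 3.37 and 1.90 in roots at 3 h and 24 h in the authors' deposited table, of which the value at 24 h passes 2-fold with centred columns. In callus it was under 2-fold. The dioxygenase Solyc06g073080, described as a flavonol synthase or flavanone 3-hydroxylase, was higher by 19.8-fold in roots at 3 h and lower in callus, with sizes of 6.34 and 5.64 at 3 h and 24 h, by the authors' deposited table. In roots at 24 h it was under 2-fold. The flavonol branch competes with anthocyanins for dihydroflavonols. Only by their descriptions could this dioxygenase and 2 further features be assigned to it. The identifier fixed for the flavonol synthase FLS was not among the features, so how the branch as a whole changed is unknown. Solyc06g083910, a flavonol synthase by its description, was lower in roots, by sizes of 5.51 and 2.39 at 3 h and 24 h of the authors' deposited table, and is listed at exactly 1 in callus. Solyc09g066310 was lower in callus at 3 h, by 2.66-fold in the authors' deposited table, and under 2-fold elsewhere.

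Among 8 fixed flavonoid regulators 3 were in the table, and all 3 were higher in every comparison. Of all features 31.3% and 11.7% were higher in roots at 3 h and 24 h, and 27.8% and 18.0% in callus. The bHLH factor AN1 (Solyc09g065100) is the partner of MYB proteins in anthocyanin control. It had folds of 224 and 2559 in roots at 3 h and 24 h, and of 68.9 and 1328 in callus. Its 24 h to 3 h ratios were 11.4 in roots and 19.3 in callus, beside 12.9 and 30.4 for CHS1, from the authors' deposited table. Among the 9 late genes 3 had such a ratio of at least 10 in roots and 2 in callus, beside 155 and 94 of 5295 features. The root folds of AN1 were 3.25 and 1.93 times its callus folds at 3 h and 24 h, against 94.9 and 40.1 for CHS1. The MYB repressor MYB-ATV (Solyc07g052490) had folds of 341 and 146 in roots at 3 h and 24 h, and of 22.5 and 84.7 in callus, in the authors' deposited table. In callus these lay close to the 22.8 and 94.0 of CHIL, while in roots CHIL had a larger fold at 24 h than at 3 h and MYB-ATV a smaller one. The WD-repeat protein AN11 (Solyc03g097340), which joins MYB and bHLH factors in a complex, had folds between 2.87 and 4.35 in the authors' deposited table. The other 5 identifiers, MYB12, AN2, ANT1, JAF13 and HY5, were not among the features, and neither were those fixed for F3'H and FLS. Their folds are therefore unknown.

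The features nearest to each early gene were sought by the Euclidean distance of the log2 folds over the 4 comparisons, with the 5 genes and the transgenes left out. CHS1 and CHS2 had no close counterpart, and 0 features lay within 5 log2 units of either. Few features could lie near them, since only 25 and 29 were at least 100-fold higher in roots at 3 h and 24 h. The nearest were AN1 at 5.27, a TBC1 domain protein (Solyc02g071420) at 5.46 and MYB-ATV at 5.82 for CHS1. For CHS2 they were MYB-ATV at 7.39, AN1 at 7.67 and an anthocyanidin 3-O-glucosyltransferase (Solyc09g059170) at 7.86. CHS1 and CHS2 lay nearer to each other, at 3.07. For CHIL the nearest were MYB-ATV at 2.13, the TBC1 domain protein at 2.59 and ANS at 3.35. F3H lay at 1.8 from a stearoyl-acyl carrier protein desaturase (Solyc06g054670), at 2.52 from a receptor-like kinase (Solyc08g068250) and at 2.59 from a heme-binding protein (Solyc07g061800), and CHIL and F3H were 2.98 apart. CHI1 had many neighbours, with 41 features within 2 log2 units, the nearest being a BURP domain protein (Solyc02g062300) at 0.41, a gibberellin 20-oxidase (Solyc01g093980) at 0.74 and a MYB factor (Solyc02g088190) at 1.00. Its distance to the nearest early gene, F3H, was 7.88. As the folds are read here, both times of a tissue share their uninduced samples, so these 4 values are not independent.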

How the data were processed

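Stranded libraries of messenger RNA from 18 samples were sequenced from both ends on a HiSeq2500, per the labels' protocols, and grouped by tissue and induction as labelled. The submitters' processing notes name CASAVA 1.8.1, and the file headers name CLC bio as the source of the folds. What aligner, genome build, counting method and scaling were used is not stated in the sources used here. Per the file headers, the authors deposited for each comparison a signed fold (given here as a score), the linear ratio it stands for, and a log10 of that ratio. The 2 deposited tables differed by at most 0.

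Log2 folds, ratios of folds, ranks, counts, medians and distances were computed from the ratio columns with Python 3.11.15, numpy 2.4.6 and pandas 2.3.3, and plotted with matplotlib 3.10.9. The neighbour search was run on simulated folds, with neighbours planted close to a target far above all other values. It found the planted ones, which that setting made certain, so this checks the code and not the features named here. The tests planned for counts or values per library could not be used. The genes, lists and rules were chosen with earlier results of these data known. Named genes are the 5 early genes, up to 4 per list by the largest absolute log2 fold, and the 3 nearest features of each early gene. Other late genes and regulators were named as fixed list members. Alternatives were a 4-fold or no threshold, centred columns, means for medians, leaving out each gene, features of exact or repeated folds removed, the log10 column, the workbook table and, added after seeing the data, columns divided by their SD and centred counts of the lists. The supplied RefSeq gene table matched 0 identifiers, so sequences and positions are not shown.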

Additional observations from a re-analysis of the deposited data

How the results depend on the processing

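The number of early genes counted as higher was the same with centred columns in all 4 comparisons. At a 4-fold threshold it was 4 in place of 5 in roots at 3 h, and 3 in place of 4 in callus at 3 h. With no threshold it was 5 in callus at 3 h. At 24 h it stayed at 5 in both tissues. Removing features of exact or repeated folds could not change it, since 0 of these genes have such folds. With columns centred on their median, the median log2 fold of the 5 genes was 8.85 and 9.45 in roots at 3 h and 24 h, the 24 h minus 3 h median in roots 0.99, and the root minus callus median 4.33 and 3.92 at 3 h and 24 h. Callus medians do not move under centring, since the callus columns have a median of 0. With the mean in place of the median the log2 folds were 7.53 and 9.14 in roots and 2.54 and 5.49 in callus, the 24 h minus 3 h differences 1.61 in roots and 2.95 in callus, and the root minus callus differences 4.99 and 3.65. Leaving out 1 gene at a time gave medians of 7.87 to 8.53 and 8.63 to 10.9 in roots at 3 h and 24 h, and 1.86 to 2.98 and 5.32 to 6.52 in callus. Of 220 values of named and listed genes, centring moved 7 past the 2-fold threshold and 2 back under it, none of them of the 5 early genes. The 2 were an acetyl-CoA carboxylase-like protein (Solyc12g100120) and a 4-coumarate CoA ligase (Solyc03g005090) in roots at 3 h, so that 0 entry genes and 0 malonyl-CoA genes were lower there in place of 1 each. In roots at 24 h 10 entry genes in place of 6, and 1 in place of 0 features of the same enzyme names, were at least 2-fold higher with centring. The log10 column and the workbook table moved 0. Centring leaves the distances between genes as they are by construction. With columns divided by their SD 2 of the 3 nearest features were shared for CHS1, CHS2 and CHI1 and all 3 for CHIL and F3H. No paired analysis was possible because the table holds comparisons and no values per library, and for the same reason no replicate could be left out. Depth, and thus the precision of the largest folds, is unknown.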
